A study of Homo sapiens with 40 samples.

Results

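The regions described here are the very broad open stretches of chromatin in a pair of breast cancer cell lines. Open chromatin was measured by ATAC-seq, in which a transposase cuts and tags accessible DNA, and each of 40 libraries came with its own list of peaks, the intervals in which tags were enriched. Peaks of all 40 lists on chromosomes 1 to 22 and X that shared at least 1 bp were merged, merged regions present in at least 2 lists were kept, and those of 3000 bp or more were taken as broad. The members were thus selected on the merged width of their peaks over all libraries, without use of the groups. This gave 515 broad regions among 71600 merged regions (0.719%). The width comes from the same lists that are described below, so width, and the high place of these regions within a list, are descriptions of how they were chosen and not findings. The merged width pools all libraries, so a region that was wide in a single line or treatment could enter through it, and counts over the members are a description for the same reason.

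The libraries came from BT474, a HER2-amplified (ERBB2-amplified) luminal breast cancer line, and from BT474R, a trastuzumab-resistant clone derived from BT474 by growth in trastuzumab, the antibody against HER2. BT474R is 1 clone, so resistance and anything else particular to that clone cannot be told apart. Cells were starved and then left untreated (Baseline, 0 h) or given water as the vehicle (Control), epidermal growth factor (EGF) or heregulin (HRG) for 1, 12 or 24 h, with 2 libraries in each of the 20 groups. EGF is a ligand of EGFR, whereas HRG binds HER3 and HER4, and each of these receptors can pair with HER2. The labels do not say that the 2 libraries of a group came from separate cultures, so the p-values measure the spread between libraries, which may be technical. All 8 luminal epithelial markers tested, among them KRT8, KRT18, GATA3 and ERBB2, had a promoter peak in all 40 libraries. Of the basal and mesenchymal markers, KRT14 and TP63 had one in 0 of 40, VIM in 13, KRT5 in 21 and ZEB1 in 36. Of the blood, endothelial and stromal markers, PTPRC, CD3E, PECAM1 and COL3A1 had one in 0 of 40 and COL1A1 in all 40. A promoter peak is openness at the start and not expression.

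Most accessible sites are short and mark 1 enhancer or promoter from which nucleosomes have been displaced. Longer stretches are known from promoters in CpG islands, where the sequence itself is poor at holding nucleosomes, from strongly transcribed gene bodies and from clustered enhancers. In a tumour genome there is a further source, because DNA present in many copies yields more tags per locus and so wider called intervals. Copy number was not measured in these libraries, so more copies and more openness per copy cannot be told apart in what follows.

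The sequence at the strongest point of 3 broad regions on which the results turn is given first, as the plus strand of GRCh38 (hg38), 5′ to 3′, with CpG dinucleotides in capitals. Each is the 300 bp window around the highest summit. The set spans a region far wider in BT474 than in BT474R, a promoter that narrowed under both ligands, and intergenic sequence that narrowed under them in BT474R.
LINC00689, chr7:159027725-159028024: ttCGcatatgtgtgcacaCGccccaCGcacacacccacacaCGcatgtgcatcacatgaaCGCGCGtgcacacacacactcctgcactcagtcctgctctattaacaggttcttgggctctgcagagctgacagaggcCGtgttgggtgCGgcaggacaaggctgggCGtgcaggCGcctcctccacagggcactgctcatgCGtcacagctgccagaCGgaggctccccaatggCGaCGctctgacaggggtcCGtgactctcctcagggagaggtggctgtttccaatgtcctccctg
EGR1, chr5:138464961-138465260: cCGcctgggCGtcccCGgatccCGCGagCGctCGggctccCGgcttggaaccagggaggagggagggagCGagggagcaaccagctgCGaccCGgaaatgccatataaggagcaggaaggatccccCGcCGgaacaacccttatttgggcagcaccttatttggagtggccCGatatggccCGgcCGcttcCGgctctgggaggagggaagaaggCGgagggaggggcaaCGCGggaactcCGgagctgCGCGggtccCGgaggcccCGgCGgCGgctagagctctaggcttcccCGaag
PIM3 (3668 bp), chr22:49967859-49968158: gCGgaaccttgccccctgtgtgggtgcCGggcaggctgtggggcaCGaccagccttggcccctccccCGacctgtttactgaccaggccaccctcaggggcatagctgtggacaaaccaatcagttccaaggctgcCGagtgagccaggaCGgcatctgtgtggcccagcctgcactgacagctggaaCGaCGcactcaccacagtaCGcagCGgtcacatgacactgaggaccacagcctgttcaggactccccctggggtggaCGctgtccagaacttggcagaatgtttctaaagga

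The window at EGR1 held 28 CpG at a GC content of 68.7% and 1 match to the ETS motif. The windows at LINC00689 and near PIM3 held 16 CpG at 61.3% and 11 CpG at 62%, so the promoter was the richest of the 3 in CpG.

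Over all members the sequence was richer in GC and in CpG than elsewhere. The median GC content was 60.4% in broad regions and 50.5% in the other regions, and the ratio of observed to expected CpG was 0.507 against 0.241. Matches were counted on both strands in the 300 bp around each summit. GGGCGG, the motif of SP and KLF factors, occurred in 52.8% of broad windows and in 23.02% of all windows. GCCNNNGGC, the motif of the luminal TFAP2 factors, occurred in 34.0% against 21.4%, and CCGGAAG, an ETS motif, in 9.13% against 4.81%. AP-1 sites (TGANTCA) were found in 10.1% against 19.3%, GATA sites (AGATAA) in 4.66% against 13.9%, FOX sites (TGTTTAC) in 6.60% against 10.3% and TATAAA in 5.24% against 13.4%. CCAAT, bound by NFY, was present in 35.2% against 32.6%. SP and KLF, ETS and TFAP2 motifs are themselves rich in G and C, and a match is a description of the letters and not a bound site.

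The broad regions summed to 2.34 Mb. Their width ran from 3001 to 34897 bp with a median of 3631 bp, against 551 bp over all merged regions. Of the 515, 102 reached 5000 bp, 17 reached 10000 bp and 6 reached 20000 bp. A peak was present in all 40 lists for 494 of them (95.9%, against 35.2% of all regions), and the fewest lists for any member was 10. A peak of 3000 bp or more was called in at least 1 library for 438 members, while the other 77 became broad only because neighbouring peaks of different libraries were chained. The threshold fell in a continuous series of widths. The regions just inside it were at RHOB (3001 bp), CSRNP1 (3004 bp) and 98932 bp from the start of PMEPA1 (3004 bp), and those just outside were a second region at GRB7 (2999 bp), WNT9A (2997 bp) and PLEKHG3 (2996 bp).

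Promoters were common among the members. A protein-coding gene start lay in 286 broad regions (55.5%, against 15.7% of all regions), 57 held only starts of non-coding genes and 172 held none. In all, 332 of 19970 coding genes (1.66%) started in a broad region. Where there was a single coding start, the region reached further into the gene than away from it in 161 of 245 cases (65.7%), with medians of 2149 bp downstream and 1546 bp upstream. By bases rather than by regions the picture was less promoter-centred. Of the broad bases, 25.04% lay within 1 kb of a coding start, 41.3% elsewhere in coding genes and 33.6% outside them. Members without a coding start lay a median of 14871 bp from the nearest one, with 96 within 10 kb and 25 more than 100 kb away. Members with a coding start had a GC content of 63.0% and a CpG ratio of 0.661, and those with no start 56.0% and 0.283.

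Broad regions were not spread evenly over the genome. Chromosome 17 carried 107 of them, 20.8% of the broad regions and 5.36% of all merged regions, which is 27.9 broad per 1000 merged regions. Chromosome 20 had 48 (16.9 per 1000), chromosome 11 had 44 (12.1 per 1000) and chromosome 8 had 31 (9.00 per 1000), whereas chromosome 21 had 0.

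**Figure D1:**
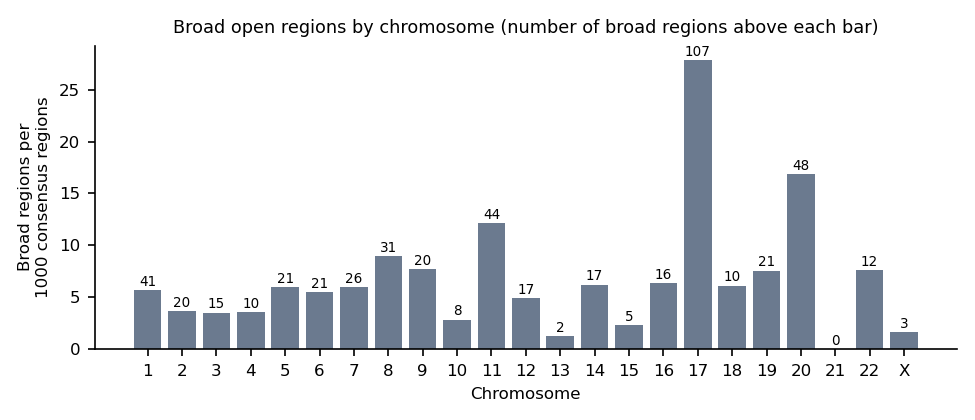
Bars give the number of broad regions per 1000 merged regions for each chromosome, and the number above each bar is the count of broad regions. Chromosome 17 stands highest at 27.9 per 1000, followed by chromosome 20 at 16.9.

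Runs of broad regions with less than 1 Mb between neighbours were then traced. The longest, chr17:37487663-40076552, ran from DUSP14 to THRA across the HER2 amplicon and held 59 of the 515 members and 18.2% of all broad bases, and 17.3% of its 342 merged regions were broad. A run of 20 lay at chr20:56628319-57999127, starting at TFAP2C, a gene for a luminal AP-2 factor. Runs of 15 lay at chr11:63915807-65861457, which includes NEAT1, and at chr17:48497166-50951360, which includes the HOXB cluster. The 10 members between ACTG1 and FASN at chr17:81505197-82107235 were packed into 65 merged regions.

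The widest broad region, chr17:39698500-39733396 (34897 bp), covered ERBB2 and the start of its neighbour MIEN1, and 70.7% of it was intron and 11.8% coding sequence. Peaks covered 28.1, 31.0 and 33.1 kb of it as the lowest, median and highest of the 20 BT474 libraries and 26.1, 32.6 and 34.0 kb in BT474R, so the lines overlapped over nearly the whole range. Of the next 5 in width, 3 were its neighbours on chromosome 17. They lay at TCAP/PNMT (31301 bp), PPP1R1B/STARD3 (23381 bp) and GRB7 (22185 bp), where TCAP encodes a titin-binding muscle protein, PNMT the enzyme that makes adrenaline, STARD3 a cholesterol carrier of late endosomes and GRB7 an adaptor that binds HER2. LASP1 (region 8555 bp from its start, 16380 bp wide), a gene for an actin-binding protein, and THRA (15678 bp), the thyroid hormone receptor alpha, belonged to the same run.

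The other widest regions had no such common address. LINC00689 at chr7:159006746-159040468 (33723 bp) is a long non-coding RNA locus near the end of chromosome 7 with 63.5% of its bases outside coding genes. FASN (22362 bp), the fatty acid synthase, was covered over 6.70, 11.0 and 14.6 kb in BT474 and 7.50, 18.1 and 22.3 kb in BT474R, so the spread within each line was wide. BT474R was higher on average by 25.3 ± 3.67 points (SE, limma adjusted p = 2.01e-06), although the lines overlapped. NEAT1 (15834 bp), the RNA scaffold of paraspeckles, was covered over a narrow range, 13.8 to 14.98 kb in BT474 and 13.4 to 15.4 kb in BT474R. MIR21 (13659 bp), the locus of a microRNA at the end of VMP1, was covered over 11.3 to 13.1 kb and 12.4 to 13.4 kb. The longest single peaks in any library were 26713 bp at LINC00689, 23850 bp at TCAP/PNMT, 22333 bp at FASN, 21534 bp at PPP1R1B/STARD3 and 19362 bp at ERBB2/MIEN1.

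**Figure D2:**
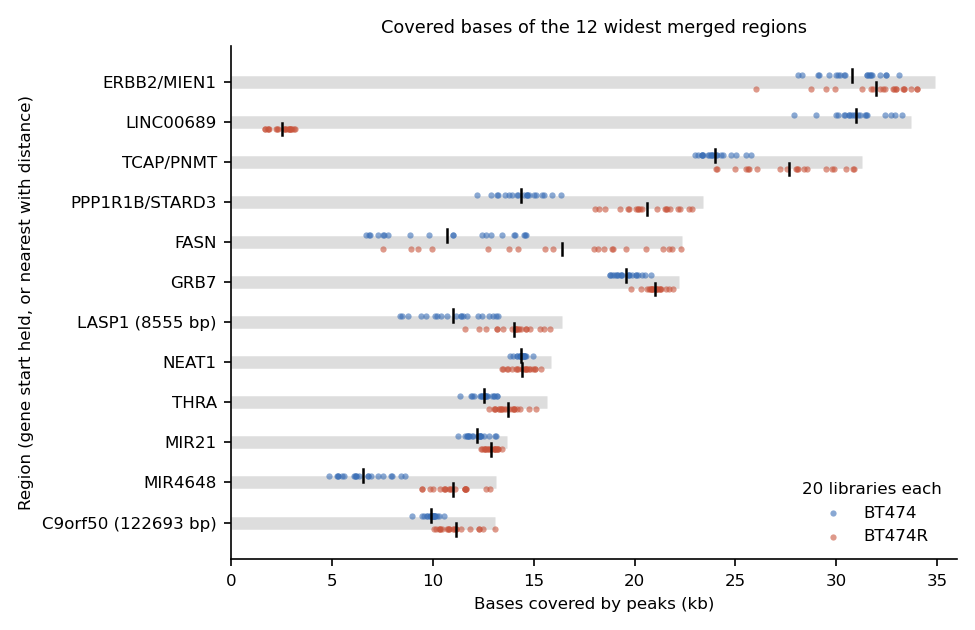
Covered kilobases per library (dots) in the 12 widest broad regions, with BT474 in blue above BT474R in red, the mean of 20 libraries as a black tick and the merged width as a grey bar. The lines do not overlap at LINC00689, at 27.9 to 33.3 kb in BT474 and 1.65 to 3.14 kb in BT474R, nor at PPP1R1B/STARD3 and MIR4648, where BT474R is higher.

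Genes of known families were looked up among the members. Of the HER2 amplicon neighbours 6 of 10 started in a broad region (60%), and of AP-1 and other immediate early genes, which are induced within minutes of growth factor signalling, 9 of 20 did (45%): EGR1, NR4A1, IER3, JUN, FOSL2, MYC, JUNB, ATF3 and KLF10. The luminal transcription factors had 5 of 15 (33.3%): ELF3, XBP1, TFAP2C, PGR and GRHL2. Of ERBB receptors, ligands and feedback genes, 4 of 18 (22.2%) did, namely ERBB2, GRB7, DUSP4 and DUSP6. Housekeeping genes had 3 of 15 (20%), developmental CpG island regulators 5 of 48 (10.4%), nuclear RNAs 1 of 11 (9.09%) and hypoxia and interferon regulators 0 of 10. The share over all coding genes was 1.66%.

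The libraries differed in how much of the broad regions their peaks covered. Lists held 32479 to 56846 peaks over 19.7 to 36.8 Mb, and depth is unknown because the lists carry no read totals. Peaks covered 64.7% to 81.7% of the 2.34 Mb of broad sequence. Broad regions in turn made up 5.13% to 7.68% of the covered bases of a list, with a median rank percentile of the peak score, the area under the significance curve, between 95.7 and 99.0. The BT474R Control library at 12 h numbered 1 had the smallest list, the lowest covered share (64.7%) and the highest share of the list (7.68%).

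Over the members chosen, BT474R covered less of the broad sequence than BT474. The choice itself leans to BT474, as 141 members were broad in the BT474 lists only and 107 in the BT474R lists only. The part of this choice in the differences below was not tested. The covered share was 73.8% ± 4.35 (SD, n = 20) in BT474R and 77.5% ± 2.50 (SD, n = 20) in BT474, a difference of -3.73 percentage points (two-sided permutation test within conditions, 100000 resamples, p = 0.00188, adjusted p = 0.0148 over 19 tests), and BT474R was higher in 2 of 10 conditions. As a share of the list, broad regions rose by 0.50 points, from 5.47% ± 0.17 to 5.97% ± 0.69 (p = 0.00233, adjusted p = 0.0148 by the same permutation test), and were higher in 8 of 10 conditions. The median rank percentile was 98.5 in BT474 and 97.8 in BT474R (difference -0.675, permutation p = 0.00079, adjusted p = 0.0148). These tests took all members, those broad in the lists of a single line included. Their p-values are thus no support independent of the choice of members.

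The size of the list moved with these measures. Covered sequence outside the broad regions ranged from 29.1 to 33.5 Mb in BT474 and from 18.2 to 34.9 Mb in BT474R. The covered share correlated with it at r = 0.895 and a Spearman coefficient of 0.823 over 40 libraries (permutation p = 1e-05 for each, the smallest the resampling can give), at r = 0.601 and a Spearman coefficient of 0.553 within the 20 BT474 libraries (p = 0.00551 and 0.0125) and at r = 0.937 and a Spearman coefficient of 0.934 within the 20 BT474R libraries (permutation p = 1e-05). Adjusted over the 6 relations computed, the p for Pearson's and Spearman's coefficients were 0.00551 and 0.0125 in BT474 and 1.5e-05 in the other 2 sets. Without the 2 libraries farthest from the median the values of r were 0.841, 0.581 and 0.902. The share of the list correlated negatively with the same size, at r = -0.962, -0.619 and -0.975. That size is most of the share's own denominator, so a negative sign is largely fixed by arithmetic. The part of list size in the difference between the lines was not tested. The covered share lost its call with regions of 4000 bp or more, at -1.46 points (adjusted permutation p = 0.293), and with baseline and control libraries alone, at -4.21 points (adjusted permutation p = 0.264).

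No difference between a ligand and Control passed the test for the broad regions as a whole. The covered share in BT474 was 76.9% ± 2.20 under Control, 77.0% ± 2.66 under EGF and 78.3% ± 3.02 under HRG (SD, n = 6 each), with differences of 0.099 and 1.44 points (exact permutation test within times, adjusted p = 0.982 and 0.774). In BT474R it was 72.6% ± 4.69, 73.0% ± 4.01 and 75.5% ± 3.52, with differences of 0.354 and 2.93 points (exact permutation, adjusted p = 0.982 and 0.264). The HRG difference in BT474R had the same sign at 3 of 3 times, and the smallest p that the 216 arrangements allow is 0.00926. The effects did not pass a test of their difference between the lines either (adjusted permutation p from 0.288 to 0.982 over 4 tests).

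**Figure D3:**
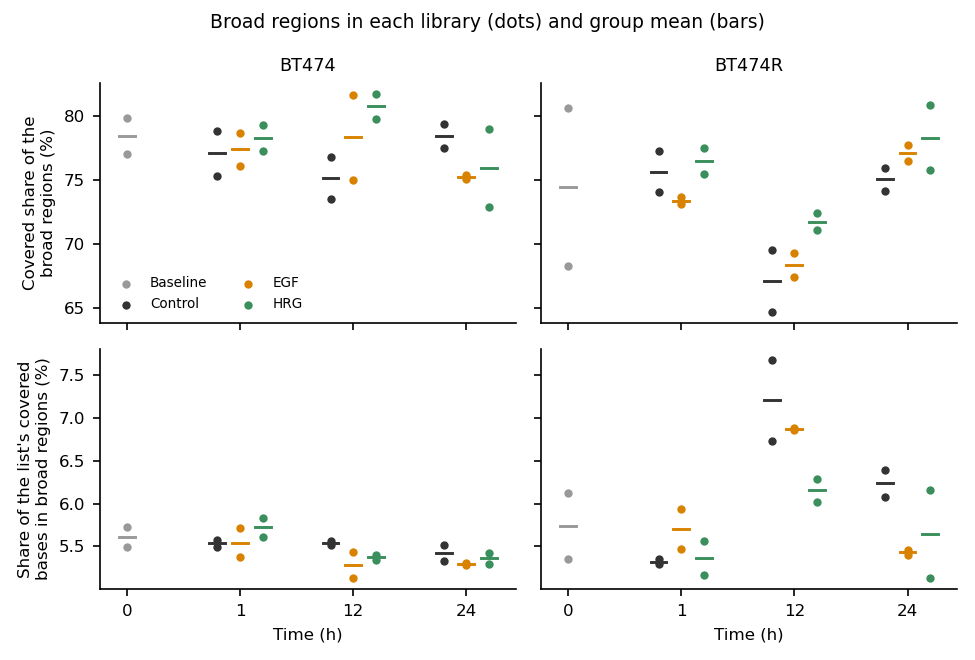
Covered share of the broad regions and their share of each list, per library (dots), by time and treatment in each line. The first BT474R Control library at 12 h lies lowest in covered share, at 64.7%, and highest in share of the list, at 7.68%.

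The broad regions were next compared one by one between the lines, with the percentage of each region covered by peaks in each library as the value and a limma model over all 71600 regions. Of the members, 152 were higher in BT474R and 273 lower at an adjusted p under 0.05. Over all regions 28.0% were called higher and 46.8% lower, and the median difference was -6.11 points, against -4.43 points over the members. With the covered Mb of each library as a covariate the split was 164 higher and 183 lower, and the shares of all regions under this setting were not counted. These counts are set in part by the width rule. When the lists of each line were merged alone, 249 members reached 3000 bp in both lines, with 63 higher and 125 lower in BT474R. The 141 that reached it in the BT474 lists only held 131 lower and 3 higher, and the 107 that reached it in the BT474R lists only held 80 higher and 6 lower. Below, a test between the lines is given only for regions that were broad in the lists of each line, and the differences of the others are a description with no test. A difference of 30 points or more was seen in 21 members that were higher (12.3% of all regions) and 48 that were lower (21.2% of all regions). The 20 libraries of each line did not overlap in 27 members higher in BT474R (2.24% of all regions) and in 41 lower (5.88%).

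**Figure D4:**
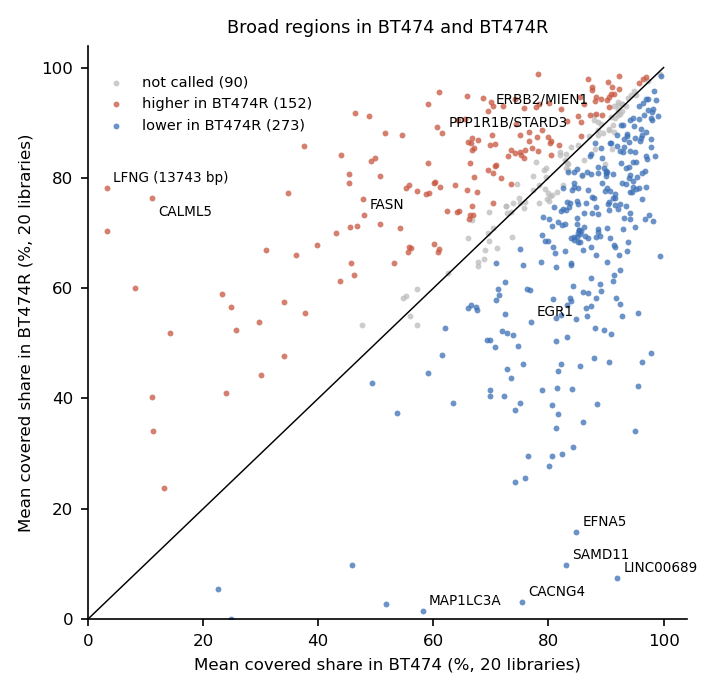
Each dot is a broad region, placed by the mean percentage covered in the 20 BT474 libraries (horizontal axis) and the 20 BT474R libraries (vertical axis), coloured by the limma call. The 273 regions called lower in BT474R lie below the diagonal and the 152 called higher above it, with LINC00689 at 91.9% against 7.40% near the bottom right corner.

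The direction of the calls varied with the place of a member in the genome. In the run around ERBB2, 42 of 59 members were higher in BT474R (71.2%) and 5 lower (8.48%), and the summed coverage was 286, 302 and 325 kb (lowest, median and highest) in BT474 and 299, 346 and 390 kb in BT474R. The narrower regions of that run, which the width rule did not use, were higher in 120 of 283 cases (42.4%) and lower in 69 (24.4%). In the run starting at TFAP2C on chromosome 20, 13 of 20 members were higher (65%) and 3 lower, with 53.8% of its 238 narrower regions higher and 21.9% lower. The other long runs did not go this way. Higher and lower were 16.7% and 75% of members in the run starting at TSNARE1, and 20% and 60% near HOXB1. The shares were 26.7% and 53.3% from RCOR2, 40% and 50% from LMX1B, and 40% and 40% from ACTG1 to FASN. Of the narrower regions of these runs, 22.2% to 24.6% were higher and 49.6% to 60% lower. Over all narrower regions the shares were 28% and 46.8%. Among the 374 members outside the 7 longest runs, 80 were higher (21.4%) and 230 lower (61.5%). Members with a coding start were higher in 59 of 286 cases and lower in 182, whereas those without any gene start were higher in 73 of 172 and lower in 69. The same tilt was seen over all regions and is not particular to the members. Over all regions, a coding start lay in 4.06% of those called higher and 22.5% of those called lower, against 15.7% of all. Among the members the shares were 38.8% and 66.7%, against 55.5%.

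Within the run the size of the difference varied from neighbour to neighbour. PPP1R1B/STARD3 was covered over 12.2, 14.6 and 16.4 kb in BT474 and 18.1, 20.3 and 22.9 kb in BT474R, with no overlap (26.6 ± 1.59 points, SE, adjusted p = 7.91e-13 by limma). LASP1 followed at 18.4 ± 2.07 points (adjusted p = 4.81e-08) and TCAP/PNMT at 11.7 ± 1.09 points (adjusted p = 2.38e-09). At GRB7 and THRA the differences were 6.37 ± 0.667 and 7.53 ± 0.908 points, and at ERBB2/MIEN1 3.41 ± 1.06 points (adjusted p = 0.00623). CDK12, a transcriptional kinase, rose by 4.12 points. The differences were 5.05 points at PSMD3, a proteasome subunit gene, and 4.43 points at MED1, a Mediator subunit gene, which were broad in the lists of BT474R only.

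The largest single difference was lower coverage in BT474R. LINC00689 was covered over 27.9, 30.9 and 33.3 kb in BT474 and over 1.65, 2.66 and 3.14 kb in BT474R, a difference of -84.5 points. Its median rank percentile within a list was 100 in BT474 and 81.7 in BT474R, so a peak remained in every library at a much shorter extent. LINC00689 and, except for MIR4648, the regions of the next 2 paragraphs reached 3000 bp in the lists of 1 line only, so the direction of their differences is largely fixed by the choice of members. The broad region beside it, chr7:158999339-159003787, 141080 bp from the start of VIPR2, had a peak in 10 of 20 BT474 libraries and in 0 of 20 BT474R libraries.

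At other such regions BT474R libraries lacked a peak. MAP1LC3A, an autophagosome protein gene, was covered over 1.59, 2.90 and 5.07 kb in BT474, while 6 of 20 BT474R libraries had any peak there and none exceeded 0.256 kb (-56.7 points). CACNG4, a calcium channel subunit gene, was covered over 2.16 to 3.39 kb in BT474 and had a peak in 3 of 20 BT474R libraries (-72.3 points). SAMD11 differed by -73.2 points on the same scale. EFNA5, an ephrin ligand, went from 2.76, 3.44 and 4.08 kb to 0.502, 0.575 and 1.07 kb (-69.0 points). None of these groups of libraries overlapped except at SAMD11, where the lowest BT474 library (1.47 kb) and the highest BT474R library (1.48 kb) met.

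Regions wide in BT474R differed by similar amounts. The region 13743 bp from LFNG, a glycosyltransferase that modifies Notch, had at most 0.492 kb in BT474 and 1.04, 2.71 and 3.17 kb in BT474R (74.8 points). MIR4648, inside the same gene neighbourhood and broad in the lists of both lines, rose from 4.86, 6.27 and 8.60 kb to 9.44, 10.9 and 12.9 kb (33.8 ± 1.82 points, limma adjusted p = 1.08e-13). The region 24238 bp from FGFR3, a fibroblast growth factor receptor, had 0 to 0.308 kb against 1.05, 2.33 and 3.37 kb (67.2 points). The region 158442 bp from C9orf50 had 1.97, 2.39 and 2.45 kb against 3.60, 3.86 and 4.51 kb (36.6 points). The region 2549 bp from CEACAM6, an adhesion molecule gene, lay in an intron of ENSG00000267881. It had 1.31, 2.24 and 2.38 kb against 2.88, 3.31 and 3.53 kb (34.4 points). In each of these 5 regions every BT474R library lay above every BT474 library.

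Among the luminal transcription factors only TFAP2C was broad in the lists of both lines, and it was higher in BT474R by 1.54 points. ELF3, an epithelial ETS factor, was covered over 2.63, 3.23 and 4.18 kb in BT474 and 3.24, 5.71 and 6.56 kb in BT474R (34.0 points), and XBP1, a regulator of the unfolded protein response, differed by 12.0 points, both broad through BT474R. PGR, the progesterone receptor, was covered over 3.09, 3.11 and 3.13 kb in BT474 and 1.46, 2.18 and 2.53 kb in BT474R (-33.5 points), and GRHL2 differed by -13.7 points, both broad through BT474. Of the developmental regulators, IRX5 was broad in both lines and fell by 15.04 points, whereas IRX3 (-49.4 points), IRX2 (16.8 points) and HOXB7 (17.6 points) were each broad in 1 line. Of the immediate early genes 8 of 9 were called lower in BT474R, against 53% of the members and 46.8% of all regions. Among those broad in both lines, EGR1 differed by -23.1 points, FOSL2 by -16.3 points and JUNB by -15.1 points. Smaller differences were seen at JUN (-11.0 points), KLF10 (-9.26 points), NR4A1 (-6.48 points) and ATF3 (-6.26 points). MYC (-24.3 points) was broad in the BT474 lists and IER3 (18.8 points) in the BT474R lists. The housekeeping regions were broad in both lines, and ACTB rose by 8.32 points while ACTG1 and GAPDH fell by 13.9 and 10.6 points. NEAT1 was not called (0.062 ± 0.548 points, limma adjusted p = 0.924).

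The ligands moved few broad regions, and the comparisons of EGF and of HRG in a line share its Control libraries. EGF in BT474 raised 15 members (5.55% of all regions were called higher) and lowered 3 (1.19% of all regions). HRG in BT474 raised 26 (6.97%) and lowered 5 (2.82%). In BT474R, EGF raised 25 (8.61%) and lowered 12 (2.46%), and HRG raised 19 (6.06%) and lowered 3 (0.345%). Read against 515 members, each count is a smaller share than that of all regions, except the 3 members lowered by HRG in BT474R. Here too the width rule takes part. Of the members raised, 8, 19, 13 and 9 in the same order of comparisons were also broad in the merged lists of untreated and vehicle libraries alone, and of those lowered, 2, 4, 11 and 3 were broad in the lists of that ligand alone. A ligand test is given below only for such members. These merged lists pooled both lines, so a member could pass through libraries of the line not compared. The counts average over the 3 times, and those for HRG in BT474R ranged from 8 higher (without the Control library at 12 h or at 24 h numbered 1) to 50 (without the Control library at 12 h numbered 2). With the covered Mb of each library as a covariate the counts of higher and lower members were 16 and 12, 28 and 8, 27 and 33, and 4 and 6 in the same order. For these refits the shares of all regions were not counted.

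By time, EGF in BT474 raised 11, 9 and 4 members at 1, 12 and 24 h (1.97%, 2.97% and 3.27% of all regions) and lowered 3, 3 and 7 (0.834%, 0.268% and 1.50%). HRG in BT474 raised 15, 27 and 2 (2.50%, 4.89% and 3.38%) and lowered 8, 2 and 6 (2.21%, 0.813% and 1.87%). EGF in BT474R raised 2, 11 and 19 (0.686%, 3.27% and 11.1%) and lowered 10, 3 and 3 (2.81%, 0.887% and 0.930%). HRG in BT474R raised 0, 24 and 4 (0.598%, 6.89% and 2.46%) and lowered 2, 3 and 1 (0.668%, 0.0447% and 0.0251%). At 1 h of HRG in BT474R, 13 of the 515 members were higher at an unadjusted p under 0.05 by limma, and 0 after adjustment. The unadjusted count was not compared with all regions, and some members pass such a threshold by chance. Each count by time rests on 2 libraries against 2.

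Across the lines, which share no library, 5 members rose under EGF in both (33.3% of the 15 in BT474 and 20% of the 25 in BT474R): regions near ARHGAP23, PLK2, RIPOR3, SPC24 and SRCIN1, of which those near ARHGAP23 and SRCIN1 were also broad without the ligand libraries. EGR1 and NR4A1 fell under EGF in both lines, as 2 of 3 and 2 of 12 members called lower, and also under HRG in both, as 2 of 5 and 2 of 3. On the score rank in place of the covered percentage, EGR1 lost its call in all 4 comparisons and NR4A1 under HRG in BT474R. Under HRG in BT474R both lost it with peaks of a score of 400 or more, and NR4A1 also with equal numbers of peaks. Higher under HRG in both were 3 members (11.5% of 26 and 15.8% of 19), near ARHGAP23 and PLK2 and at ENSG00000262967. How many of all regions were called in both lines was not counted, so these shared calls are a description of the members. Of the members raised, 0 of 15, 5 of 26, 8 of 25 and 8 of 19 held a coding start in the 4 comparisons (0%, 19.2%, 32% and 42.1%), against 55.5% of all members. Over all regions raised the shares were 0.705%, 1.22%, 1.67% and 4.63%, against 15.7% of all regions.

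EGR1, a zinc finger immediate early factor, lay in a broad region of 7845 bp at chr5:138463673-138471517. In BT474 the 6 Control libraries covered 6.72, 7.38 and 7.61 kb (lowest, median and highest), the EGF libraries 3.83, 5.19 and 6.28 kb and the HRG libraries 3.75, 5.32 and 6.43 kb. No treated library reached the lowest Control library. In BT474R, Control covered 4.71, 5.70 and 6.04 kb, EGF 1.79, 2.34 and 5.23 kb and HRG 2.30, 3.43 and 5.41 kb, with the highest treated libraries inside the Control range. The differences were -27.0 points for EGF and -23.9 points for HRG in BT474 (SE 4.82 each, adjusted p = 5.98e-04 and 0.00154), and -32.2 and -25.0 points in BT474R (adjusted p = 4.02e-05 and 0.00165, limma). At 1 h none was called (-5.80 to -11.1 points). At 12 h of EGF in BT474R coverage was 1.79 and 1.89 kb against 5.16 and 5.70 kb, a fall of 45.7 points. The EGF difference did not pass a test between the lines (-5.17 ± 6.82 points, adjusted p = 0.801).

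NR4A1, an orphan nuclear receptor of the same immediate early class, lay in 7653 bp at chr12:52050162-52057814. The BT474 Control libraries covered 3.03 and 3.14 kb at 1 h, 7.05 and 4.84 kb at 12 h and 7.32 and 7.51 kb at 24 h, so the starved controls themselves moved with time. EGF libraries stayed at 2.46 to 2.99 kb, and HRG libraries covered 4.91 and 4.17 kb at 1 h and 2.45 to 2.90 kb later. In BT474R the order of the controls differed, with 6.61 and 6.09 kb at 1 h, 2.75 and 2.79 kb at 12 h and 4.48 and 3.17 kb at 24 h, while EGF libraries covered 2.41 to 3.15 kb and HRG libraries 2.56 to 3.22 kb. The averaged differences were -35.6 points (EGF) and -28.7 points (HRG) in BT474 and -21.8 and -18.8 points in BT474R (SE 4.04, adjusted p = 1.45e-06, 2.43e-05, 5.53e-04 and 0.00475). By time they passed the threshold at 12 and 24 h in BT474 and at 1 h in BT474R. The averages thus rest on the times at which the controls were wide. No BT474 EGF library covered 3000 bp of the region. The BT474 HRG libraries that did were those at 1 h, where HRG lay above Control. The p-values of these averages are therefore no support independent of the choice of members.

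JUN was the third immediate early region lowered in a ligand comparison. Its 4550 bp were covered over 3.20, 3.75 and 3.93 kb under Control and 2.38, 3.18 and 3.71 kb under EGF in BT474R (-12.0 ± 3.21 points, adjusted p = 0.0146), with the 12 h EGF libraries lowest at 2.56 and 2.38 kb. MYC, FOSL2, JUNB, ATF3 and KLF10 passed the threshold in none of the 4 ligand comparisons.

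**Figure D5:**
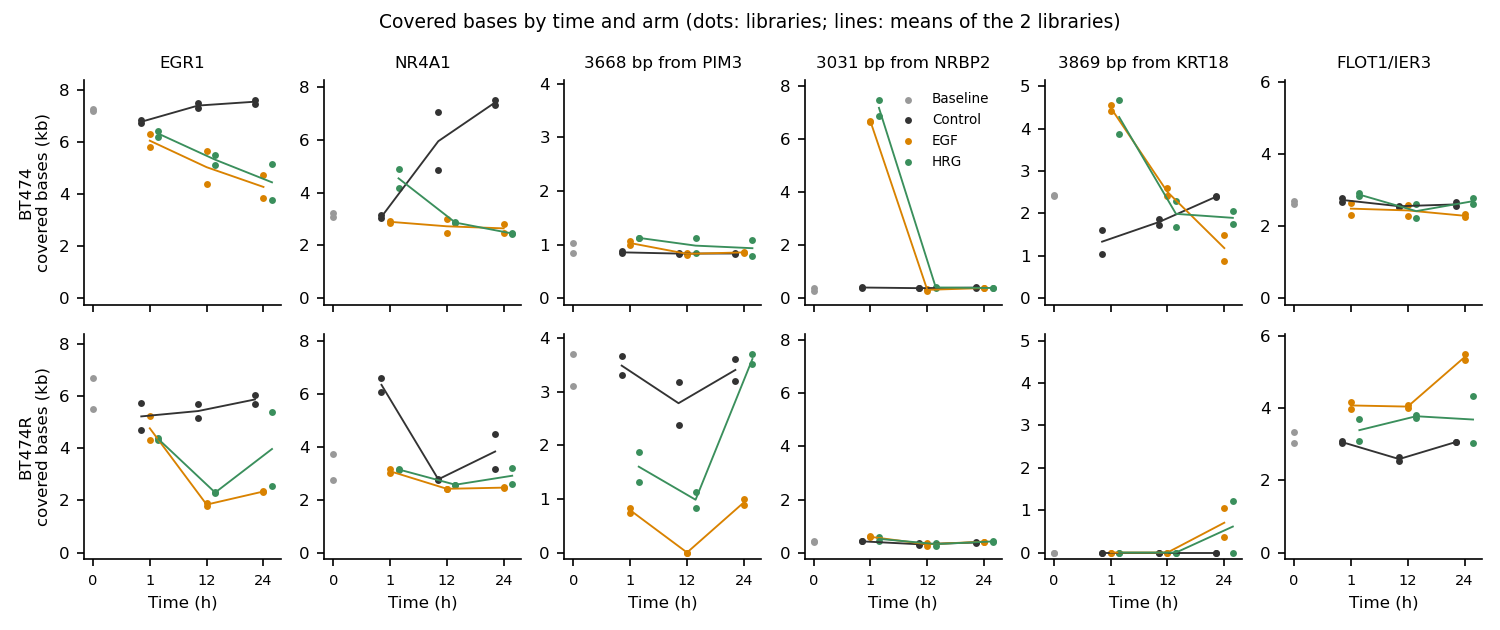
Covered kilobases per library (dots) and means of 2 libraries (lines) against time in h for 6 broad regions, with BT474 in the upper row and BT474R in the lower row. The region near NRBP2 opened to 6.65 to 7.48 kb at 1 h of either ligand in BT474, and the region near PIM3 was at 0 kb in both BT474R libraries at 12 h of EGF.

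IER3, an immediate early gene with a role in survival signalling, shared a region of 5623 bp at chr6:30739394-30745016 with FLOT1, which encodes the membrane scaffold flotillin. In BT474R, Control covered 2.54, 3.05 and 3.08 kb, EGF 3.98, 4.13 and 5.50 kb and HRG 3.03, 3.72 and 4.34 kb. All 6 EGF libraries exceeded every Control library, and at 24 h they reached 5.33 and 5.50 kb. All 20 BT474 libraries covered 2.22 to 2.91 kb. The differences from Control were 28.6 points for EGF and 12.7 points for HRG in BT474R and -3.98 points for EGF in BT474, which puts EGF in BT474R 32.6 points above EGF in BT474. The region reached 3000 bp only in the ligand libraries of BT474R, so these are a description with no test. Over all members limma's test of the difference between the lines called 3 higher and 5 lower for EGF (3.17% and 2.37% of all regions) and 2 higher and 3 lower for HRG (2.77% and 2.15%).

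The strongest early opening was intergenic. The region at chr8:143844004-143851484 (7481 bp), 3031 bp from the start of the pseudokinase gene NRBP2, was covered over 6.65 and 6.69 kb at 1 h of EGF and over 6.88 and 7.48 kb at 1 h of HRG in BT474. All other 36 libraries, BT474R at 1 h included, covered 0.250 to 0.612 kb. At 1 h the differences were 83.8 points for EGF and 90.6 points for HRG, and at 12 and 24 h none was called. This region reached its merged width through those 4 libraries, as the next 2 did through ligand libraries of BT474, so their values are a description with no test.

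A region of 4683 bp at chr12:52952987-52957669, 3869 bp from the luminal keratin gene KRT18, also opened at 1 h in BT474. Control covered 1.62 and 1.05 kb, EGF 4.57 and 4.42 kb and HRG 3.87 and 4.68 kb (differences of 67.5 and 62.8 points). At 24 h EGF lay below Control, at 1.48 and 0.883 kb against 2.38 and 2.41 kb (-25.8 points). In BT474R, 3 of 20 libraries had a peak there, all at 24 h of a ligand.

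The region 141080 bp from VIPR2, next to LINC00689, opened at a later time. At 12 h in BT474 it was covered over 3.83 and 3.43 kb with EGF and 4.33 and 4.39 kb with HRG, against 1.11 and 0 kb with Control (differences of 69.1 and 85.5 points). At the other times no BT474 library exceeded 1.65 kb.

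The largest closing was near PIM3, a serine/threonine kinase gene. The intergenic region of 3714 bp at chr22:49964440-49968153, 3668 bp from its start, was covered over 2.39, 3.25 and 3.66 kb by the BT474R Control libraries and over 0 to 0.993 kb by the EGF libraries, with 0 kb in both at 12 h. HRG libraries covered 1.32 and 1.88 kb at 1 h, 1.13 and 0.838 kb at 12 h and 3.70 and 3.52 kb at 24 h, so the region was low at 1 and 12 h and within the Control range or just above it at 24 h. In BT474 all 20 libraries covered 0.789 to 1.13 kb. The difference from Control in BT474R was -71.4 points for EGF, and subtracting the BT474 effects leaves -73.1 points for EGF and -35.9 points for HRG. The region reached 3000 bp in the untreated, vehicle and HRG libraries of BT474R and in no other lists, so these 3 values are a description with no test. Averaged over the times, HRG lay 31.2 points lower in BT474R (limma adjusted p = 8.05e-06), a call lost with a score of 400 or more and on the rank. The HRG libraries that covered over 3000 bp were those at 24 h, where HRG was not lower than Control. The fall lay at 1 and 12 h, so this p-value is no support independent of the choice of members.

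Several other members were wider under a ligand by smaller amounts. The region 16212 bp from SPC24, a kinetochore gene, was covered over 1.53 to 1.59 kb by BT474 Control, 1.77 to 2.72 kb by EGF and 1.77 to 3.25 kb by HRG libraries (16.9 and 21.1 points), with no treated library below the highest Control library. It reached 3000 bp only in ligand libraries, so no test is given. Inside the intron of SRCIN1, which encodes an inhibitor of Src kinase, ENSG00000274996 rose by 15.3 ± 2.57 and 16.6 points in BT474 (adjusted p = 2.94e-04 and 8.24e-05). A second region of the same gene, 42864 bp from its start, covered 1.47 to 3.19 kb under Control and 3.54 to 5.26 kb under EGF in BT474R (35.6 ± 5.24 points, adjusted p = 3.05e-05). The region 77379 bp from ARHGAP23, a GTPase-activating protein gene, rose in all 4 comparisons, by 7.65, 9.77, 14.2 and 10.2 points, and lost its call in BT474R on the rank and, under HRG, with equal numbers of peaks. Both SRCIN1 regions and the ARHGAP23 region lie in the run around ERBB2. The region at ENSG00000262967, which overlaps ABCC3 and ANKRD40, rose by 18.5 and 17.2 points in BT474 and by 13.2 points under HRG in BT474R. It lost its EGF call in BT474 on the rank.

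LINC02753, a long non-coding RNA locus, was wider under the ligands in BT474R. Its Control libraries covered 1.08, 1.71 and 2.63 kb (lowest, median and highest), the EGF libraries 2.13, 2.43 and 2.87 kb and the HRG libraries 1.87, 2.73 and 2.94 kb, with overlap. The differences were 21.1 points under HRG and 16.9 points under EGF, with no test because the untreated and vehicle lists, merged, did not reach 3000 bp in 1 stretch. The BT474R Control libraries at 12 h were the lowest, at 1.08 and 1.59 kb. In the other direction, the region near CEACAM6 fell under HRG in BT474 by 7.40 ± 1.92 points (adjusted p = 0.0132), all of it at 1 h, where HRG libraries covered 1.31 and 1.46 kb and Control 2.21 and 2.12 kb. This call was lost with a score of 400 or more and with equal numbers of peaks. No BT474 library covered more than 2.38 kb of this region, which met the width rule through BT474R libraries. YAP1, the Hippo pathway coactivator, differed by -8.02 points under EGF in BT474, with libraries that overlapped Control and with no test because the EGF lists alone did not reach 3000 bp.

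The widest HER2 regions were not called under the ligands. ERBB2/MIEN1 differed by 0.096, 1.54, 0.531 and -1.32 points in the 4 comparisons (SE 1.93 each, adjusted p from 0.861 to 1.0), and GRB7 by 1.02, 1.45, 1.31 and -0.856 points (SE 1.22). Among the amplicon neighbours, PSMD3 differed by 12.4 points under EGF in BT474R, without a test because it reached 3000 bp only in ligand libraries. NEAT1 fell under EGF in BT474R by 3.50 points (SE 1.0, limma adjusted p = 0.0229). Of the luminal factors, developmental regulators, housekeeping genes and ERBB genes with broad regions, 0 were called in any ligand comparison by limma at an adjusted p under 0.05.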

How the data were processed

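ATAC-seq libraries of BT474 and BT474R cells (40 libraries, 20 groups of 2) were used as deposited. The authors checked reads with FastQC, trimmed them with Trim Galore 0.6.6 (version per the labels), mapped them to GRCh38.p13 with BBMap and called peaks per library with Genrich after removing mitochondrial and blacklisted reads. No source used here states the Genrich options, so whether intervals were centred on transposase cut sites, and how wide each cut was drawn, is unknown, and both would change every width. The deposited lists give a score in column 7 (area under the significance curve, which grows with width and depth, lowest 200) and −log10 p and q values. The authors deposited no read totals in the lists.

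Lists were merged and broad regions (3000 bp or more) selected with Python 3.11.15, numpy 2.4.6 and pandas 2.3.3, and annotated with GENCODE 44 and the GRCh38 sequence (samtools 1.23.1, pysam 0.24.0). A region takes its name from the genes whose starts it holds, or from the nearest coding gene with the distance. The value was the percentage of a region covered by peaks in a library. The covered share, the share of the list and the median score rank were compared by permutation within time or condition (19 tests, Benjamini-Hochberg adjusted). Regions were compared with limma 3.58.1 in R 4.3.3 over all 71600 regions, with 1 mean per group and an adjusted p under 0.05. On simulated data, 19% of regions changed by 20 points and 51% of those changed by 40 points were recovered for EGF in BT474, and 53% and 86% for the lines. The changed regions were drawn from all regions, at middle covered shares. Members were covered more, with medians of 79.8% for those with a coding start and 75.4% for those with no start. These rates therefore need not hold for the members. No 2 lists shared more than 1.38% of their intervals. The members, gene lists and tests were chosen with earlier results of these data known. Named regions were the 12 widest, the 5 with the longest single peak, the 3 with the smallest adjusted p in each comparison and direction (among those past the threshold), the 3 on each side of the width threshold, up to 4 widest of each gene list, and the 5 with the fewest lists or the largest SD. Tests of single regions between the lines are given only where the lists of each line, merged alone, reached 3000 bp. For a ligand comparison, the lists of the lower side had to reach it, pooled over both lines. A region could thus pass this rule through libraries of the other line. Both rules were set after values were seen. Further members of a list and members called in both lines were named after their values were seen. Alternatives were other width, list and score thresholds, equal numbers of peaks, the rank or covered Mb in the model, a replicate block, single times and leaving out each library. Some items are not reported here.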

Additional observations from a re-analysis of the deposited data

Results flagged for a closer look

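Within groups of 6 libraries of 1 treatment and line, 8 of 126 groups tested held a library that stood apart from the other 5, and chance marks about 1 group in 20. In covered kilobases, the PIM3 (3668 bp) region was lowest in the BT474R Control library at 12 h numbered 1, at 2.39 kb against 3.19 to 3.66 kb, and highest in the BT474 Control library at 1 h numbered 2, at 0.876 kb against 0.824 to 0.841 kb. ENSG00000287886 was lowest in the same BT474R library, at 4.89 kb against 5.28 to 5.40 kb. EFNA5 was highest in the BT474 Control library at 1 h numbered 1, at 4.08 kb against 3.24 to 3.52 kb, and the region 158442 bp from C9orf50 lowest in the BT474 Control library at 24 h numbered 2, at 2.35 kb against 2.38 to 2.40 kb. YAP1 was lowest in the BT474R EGF library at 12 h numbered 2, at 2.45 kb against 2.47 to 2.48 kb. Over all members, the share of the list was lowest in the BT474 Control library at 24 h numbered 1, at 5.33% against 5.49% to 5.58%, and the median rank percentile highest in the BT474 EGF library at 12 h numbered 1, at 98.8 against 98.3 to 98.4.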

How the results depend on the processing

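Widths of 2500 bp or more gave 1073 regions and widths of 4000 bp or more gave 197, against 515. The line difference in covered share was -1.46 points (adjusted p = 0.293) and in rank percentile -0.0972 (adjusted p = 0.417) at 4000 bp, and in share of the list 0.593 (adjusted p = 0.063) at 2500 bp. With baseline and control libraries alone the 3 were -4.21, 0.598 and -0.733 (adjusted p = 0.264 each). All are permutation tests.

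Ligand effects that missed the threshold and changed sign were these. EGF in BT474 on the covered share was -0.26 at 2500 bp, -0.10 with a score of 400 or more and -0.484 with equal numbers of peaks, and on the share of the list 0.0553 with equal numbers of peaks. HRG in BT474 on the share of the list was 0.00622 at 4000 bp and 0.0726 with equal numbers of peaks. EGF in BT474R on the covered share was -0.0172 with equal numbers of peaks, and on the rank 0.224 at 2500 bp and 0.0491 at 4000 bp. Ranking by score per base gave -0.667 for EGF and -0.994 for HRG in BT474. The difference between the lines in the EGF effect on the covered share was -0.0722 at 4000 bp. As single libraries were left out, the EGF effect on the covered share lay between -1.01 and 1.21 in BT474, between -0.453 and 1.16 in BT474R, and their difference between -0.857 and 1.37. The share of the list ran from -0.183 to -0.0701 for EGF and from -0.0525 to 0.0227 for HRG in BT474, with the difference in the EGF effect from -0.285 to 0.0327, and the rank effect of EGF lay between -0.0253 and 0.124 in BT474, and between -0.267 and 0.226 in BT474R.

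Members called moved as follows. For the covariate, the rank, the score threshold, the replicate block and the refits without a library, the shares of all regions were not counted. With covered Mb as a covariate, 12 were lower for EGF in BT474, 8 for HRG in BT474 and 33 for EGF in BT474R, and 4 were higher and 6 lower for HRG in BT474R. On the rank, 39 were higher and 5 lower for EGF in BT474, 8 lower for HRG in BT474, 27 lower for EGF in BT474R and 1 lower for HRG in BT474R. With a score of 400 or more, 11 were higher and 0 lower for HRG in BT474R. At 30 points, 21 were higher and 48 lower in BT474R. At 12 and 24 h alone EGF in BT474 gave 9 and 4 higher, with 7 lower at 24 h, and EGF in BT474R gave 3 lower at each. HRG in BT474 gave 15 and 2 higher at 1 and 24 h and 8 and 2 lower at 1 and 12 h. EGF in BT474R gave 2 and 11 higher at 1 and 12 h, and HRG in BT474R 0 and 4 higher at 1 and 24 h and 1 lower at 24 h. The single times were chosen after seeing the data. The cause of these shifts was not tested.

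Leaving out single libraries, EGF in BT474 ran from 11 to 18 higher and 2 to 8 lower (8 without EGF at 12 h numbered 1), and HRG in BT474 from 17 (without HRG at 24 h numbered 1) to 32 higher and 3 (without Control at 12 h numbered 1) to 7 lower. EGF in BT474R ran from 13 (without Control at 24 h numbered 1) to 32 higher and from 5 to 17 lower, with 5, 6, 7 and 6 without the libraries numbered 2 of Control at 1 h, Control at 12 h, EGF at 1 h and EGF at 24 h. HRG in BT474R ran from 8 to 50 higher and 3 to 6 lower. It gave 50, 46 and 31 without the libraries numbered 2 of Control at 12 h, HRG at 24 h and Control at 24 h, 8 without Control at 12 h or at 24 h numbered 1, 9 without HRG at 1 h numbered 2 and 11 without Control at 1 h or HRG at 24 h numbered 1, and 5 and 6 lower without HRG at 1 h numbered 1 and HRG at 24 h numbered 2. The lines ran from 146 to 154 higher and 267 to 281 lower.

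Libraries with the same number showed little shared deviation across the members (correlations from -0.134 to 0.21, over 0.1 in 3 of 12). A correlation across members cannot see a shift common to all of them, so it cannot exclude a pairing. The labels name no pairing, and the numbers were not used as one in the main tests. With a replicate block the counts higher and lower were 14 and 3, 26 and 5, 22 and 11, 19 and 3, and 152 and 272 for the lines. Of 96 alternatives for 16 ligand effects at named regions given with a test, 80 kept the call and 16 lost it, and none of 192 refits without 1 library lost a call. The losses lay at EGR1 (5), NR4A1 (3), ARHGAP23 (3), PIM3 (2), CEACAM6 (2) and ENSG00000262967 (1), all on the rank, with a score of 400 or more or with equal numbers of peaks. Depth, which the lists do not give, limits how short a covered stretch could be seen.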

Other observations

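Coverage of some members differed between times under vehicle alone, which was not tested. At NR4A1 the Control libraries covered 3.03 and 3.14 kb at 1 h and 7.32 and 7.51 kb at 24 h in BT474, and 6.61 and 6.09 kb at 1 h and 2.75 and 2.79 kb at 12 h in BT474R, while the untreated libraries at 0 h covered 3.23 and 3.09 kb in BT474 and 3.75 and 2.73 kb in BT474R. The region near KRT18 covered 1.62 and 1.05 kb under Control at 1 h and 2.38 and 2.41 kb at 24 h in BT474. The region near VIPR2 was covered in 1 of the 2 BT474 Control libraries at each time, over 1.04, 1.11 and 0.999 kb, and in the other not at all. Near FGFR3 and near LFNG, 8 and 6 of the 20 BT474 libraries had a peak, of at most 0.308 and 0.492 kb. Near LFNG, coverage in BT474R differed from Control by 26.0 points under EGF and 27.6 points under HRG, with no test because the region reached 3000 bp only in ligand libraries. The region 40954 bp from ZBP1, a sensor of nucleic acids, lay in an intron of PMEPA1. It had a peak in 7 of 20 BT474 and 13 of 20 BT474R libraries, with 0 to 3.79 kb covered in BT474R.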
